A study of Mus musculus with 11 samples.

Results

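Corneas of mice given pan eye drops, a small molecule that acts on all Trk receptors, were set against corneas of mice given vehicle drops across the whole of the NanoString mouse Inflammation panel, which counts 248 transcripts with barcoded probes. The comparison takes the 4 pan samples and the 3 vehicle samples, 7 of the 11 samples of the series, the others being 4 samples given C1, a small molecule that acts on TrkC. All 248 genes were fitted, and the description rests on the 130 genes whose mean log2 normalized count over the 7 samples was at least 5, called well-detected here. Near that limit, Cxcl1 (4.81), C3ar1 (4.94) and Tgfb2 (4.95) lay just below it and Mrc1 (5.02), Hspb2 (5.04) and C1ra (5.06) just above it. The question was which inflammation genes of the stressed cornea differ in level when the drops hold pan.

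All mice were C57BL/6 females (the methods name the C57BL/6J substrain, used at 6 to 10 weeks of age) kept for 5 days under desiccating stress, a model of dry eye that joins a dry draft with scopolamine in the drinking water to stop tear secretion, and no unstressed cornea was measured on this panel, so every difference is between stressed corneas. The drops were given 2 times a day, as PBS for vehicle and with 10 µM of compound for pan and C1. The labels name the cornea as the tissue and also the corneal epithelium. The sources do not say how many corneas made up a sample, so the p-values measure the spread between these samples. The paper describes the samples as biological replicates, of which those that passed quality control were kept.

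Trk receptors are the tyrosine kinases through which nerve growth factor and the related neurotrophins signal, and the corneal epithelium and its dense sensory nerves both carry them. An active Trk receptor recruits adaptor proteins that switch on Ras and the ERK kinases. Desiccation stirs the corneal epithelium to release cytokines and chemokines through NF-kB and the MAP kinases, and leukocytes then enter the tissue.

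The total over the 248 probes was 91955 to 133098 counts in the vehicle samples, 64156 to 101351 in pan replicates 1 to 3 and 646446 in pan replicate 4. A single count was thus worth 1.64 to 2.30 normalized counts with vehicle, 2.44 to 3.25 in pan replicates 1 to 3 and 0.315 in pan replicate 4. Pan replicate 4 also stands apart in 1 of the labels' age entries, which reads 22 to 24 months for it and 2 to 3 months for the other 6 samples, while another entry reads 3 months for all. A gene at 3 counts or fewer cannot be told from a count of 0, and this held for 60 to 85 genes in pan replicates 1 to 3, 19 to 44 in the vehicle samples and 0 in pan replicate 4. Of the well-detected genes 0 were that low in any sample, the lowest being at 6 counts, and together they carried 99.1 to 99.6% of the normalized total. Such limits cover counting error alone. Probes for Trk receptors, neurotrophins, keratins and Pax6 are not among the 248 genes, so the corneal epithelium could not be checked by its defining markers. The 7 genes listed as expressed by epithelium, Il1a, Il18 and Areg among them, summed to 4755 to 5471 normalized counts with vehicle and 5336 to 6132 with pan. Il1a was itself higher in every pan sample, so these sums do not measure epithelial content apart from it.

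A single well-detected gene passed the test. Tnfaip3, which encodes the deubiquitinase A20 that switches off NF-kB signalling, was higher in every pan sample. Il1a, an epithelial alarm cytokine, and Ptger4, the prostaglandin E2 receptor EP4, were also higher in all 4 pan samples than in any vehicle sample, and Tgfb3, Irf3 and Il15 were lower in all 4, but none of these 5 passed. Outside the well-detected genes, the neutrophil chemokine Cxcl1 rose, and Ifng, Mbl2 and the class II pseudogene H2-Ea-ps fell at levels of a few counts. These 5 genes made up 2.02% of the 248 tested by limma at an adjusted p of 0.05.

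At an unadjusted p of 0.05, 31 genes (12.5%) passed, of which 4 were well-detected (Tnfaip3, Il1a, Ptger4 and Tgfb3). All 4 pan samples lay above every vehicle sample for 6 of the 248 genes (2.42%) and below every vehicle sample for 21 (8.47%). Of the 130 well-detected genes 3 lay above and 3 below. For 3 against 4 samples the exact permutation test gives such a separation, in either direction, a p of 0.0571. Some of 130 genes would thus separate by chance. The log2 fold change was above 0 for 52 and below 0 for 78 of them, with a median of −0.07, and the median was 0.02 once each sample was centred on its well-detected genes. The 118 less abundant genes had a median of −0.60, with 23 above and 95 below 0. They held 18 of the 21 genes that lay below, and 10 of these 18 were at 3 counts or fewer in all of pan replicates 1 to 3.

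**Figure D1:**
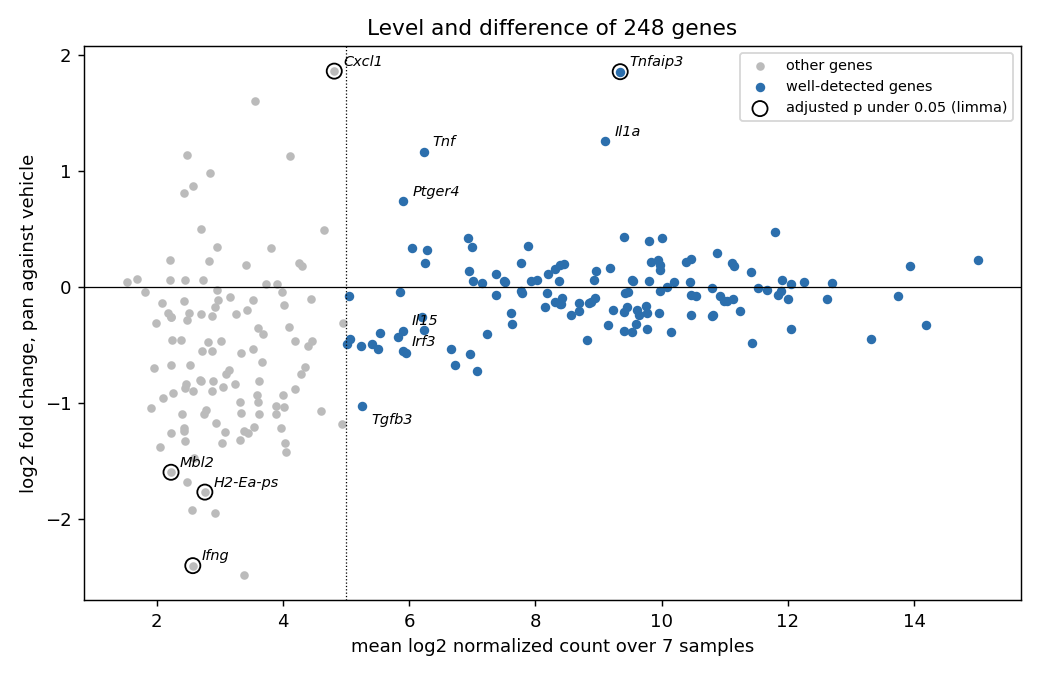
Each point is 1 of the 248 genes, with its mean log2 normalized count over the 7 samples on the x axis and its log2 fold change of pan against vehicle on the y axis; circles mark the 5 genes with an adjusted p under 0.05 in limma, and the dotted line marks a mean of 5. Right of that line Tnfaip3 is the circled gene, at 1.86, and left of it most points lie below 0.

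Among the 10 well-detected genes of TNF and NF-kB signalling, 7 had a log2 fold change above 0 and 3 below, with a median of 0.18 against −0.07 over all well-detected genes. Tnfaip3 (gene ID 21929) had 344, 320 and 273 normalized counts in vehicle replicates 1 to 3 and 1405, 1176, 1145 and 854 in pan replicates 1 to 4. The lowest pan sample, the deeply counted replicate 4, was still far above the highest vehicle sample. The log2 fold change was 1.86 (SE, its standard error, 0.25, 95% interval 1.29 to 2.42, adjusted p = 0.00846 from limma), and the exact permutation test gave its smallest possible p for 3 against 4 samples, 0.0571. In fits that left out vehicle replicate 2 or 3 the adjusted p of Tnfaip3 was 0.0566 or 0.0536, with log2 fold changes of 1.88 and 1.76.

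Tnf, a central inflammatory cytokine, was split among the pan samples. It had 54.1, 62.2 and 31.2 normalized counts with vehicle and 42.2, 193, 55.1 and 284 with pan, so that pan replicates 2 and 4 were above the vehicle samples and replicates 1 and 3 were among them (log2 fold change 1.17, SE 0.69, adjusted p = 0.542 from limma). Rela, the p65 subunit of NF-kB, had 1666 ± 140 normalized counts (SD, n = 3) with vehicle and 2133 ± 676 (SD, n = 4) with pan, with 3 of 4 pan samples above the vehicle samples (adjusted p = 0.765 from limma). Nfkb1, which encodes the p50 subunit, had 1446 ± 118 (SD, n = 3) and 1385 ± 155 (SD, n = 4). Daxx, a death-domain adaptor, was likewise above the vehicle samples in 3 of 4 pan samples, with a log2 fold change of 0.36 (SE 0.27).

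The panel holds 25 genes listed as NF-kB targets, and they were split. Of these, 2 were called higher (Tnfaip3 and Cxcl1) and 0 lower, where 2 of all 248 genes were called higher and 3 lower (2.02% in all), and 12 had a log2 fold change above 0 and 13 below, and their median was −0.04 against −0.20 over all 248 genes. Cxcl1 and its relative Cxcl2, both ligands of the neutrophil receptor Cxcr2, were above every vehicle sample in all 4 pan samples. Of the 9 CXC chemokines and receptors, all less abundant, 4 were above and 5 below 0, with a median of −0.45. Cxcl1 (gene ID 14825) had 16, 9.22 and 16.4 normalized counts with vehicle and 55.2, 48.8, 37.7 and 56.3 with pan. These rest on 4 to 10 counts in the vehicle samples and 13 to 20 in pan replicates 1 to 3, and on 179 counts in pan replicate 4, which gave a level close to that of pan replicate 1. Its log2 fold change was 1.86 (SE 0.29, adjusted p = 0.0181 from limma). The adjusted p was below 0.05 in 2 of the 7 fits that left out a sample (those without vehicle replicate 1 or pan replicate 3), with log2 fold changes of 1.59 to 2.01 over the 7, and with 20 normalized counts added to every value the log2 fold change was 1.03. Cxcl1 was not called with all 3 groups in 1 fit (SE 0.66, adjusted p = 0.217 from limma) or with the replicate number as a block (adjusted p = 0.0888). Cxcl2 had 2 to 4 counts in each vehicle sample and a log2 fold change of 1.61 (SE 0.35, adjusted p = 0.0753 from limma). That value was 0.57 with 20 normalized counts added and 0.11 with a floor of 20 normalized counts. The other NF-kB targets Il1b (16.4 ± 1.85 and 13.1 ± 7.84 normalized counts, SD, n = 3 and 4) and Ptgs2 overlapped between the groups. Neutrophil markers summed to 24 to 42.8 normalized counts with vehicle and 13 to 39 with pan, and their part in the Cxcl1 and Cxcl2 values was not tested.

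The promoters of Tnfaip3, Cxcl1, Il1a and Ptger4, the genes that were higher in all pan samples and had more than 3 counts in every sample, are shown beside these values because 3 of them are listed NF-kB targets and NF-kB binds a known consensus of 10 bases. Given below are the 100 bases before the RefSeq transcription start, 5′ to 3′ on the strand of the gene in GRCm38.p6, in lower case with matches to the NF-kB consensus on either strand in capitals.
Tnfaip3, chr10:19015411-19015510, minus strand: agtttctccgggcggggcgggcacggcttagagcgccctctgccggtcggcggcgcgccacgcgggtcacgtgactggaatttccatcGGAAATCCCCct
Cxcl1, chr5:90891145-90891244, plus strand: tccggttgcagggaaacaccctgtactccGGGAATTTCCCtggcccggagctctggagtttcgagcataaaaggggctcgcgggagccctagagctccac
Il1a, chr2:129309973-129310072, minus strand: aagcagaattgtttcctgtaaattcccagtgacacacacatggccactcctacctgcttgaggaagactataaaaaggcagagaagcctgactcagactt
Ptger4, chr15:5244188-5244287, minus strand: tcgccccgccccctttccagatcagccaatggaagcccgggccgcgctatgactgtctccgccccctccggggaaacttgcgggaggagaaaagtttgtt
The capitals of Tnfaip3 lie 12 to 3 bases before its start, and another match lies 125 to 116 bases before it, outside the stretch shown. Those of Cxcl1 are 2 overlapping matches, 1 on each strand, that span bases 71 to 61 before the start. Il1a and Ptger4 hold 0 matches in the window searched, which ran from 250 bases before to 50 after the start. The consensus occurred in 5.14% of 27025 genes with such a window and in 14.1% of the 99 well-detected panel genes that have 1. A second RefSeq start of Tnfaip3 had 0 matches.

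Of the interleukin 1 family, Il1a was higher in every pan sample and the receptor and Il18 were not. Il1a (gene ID 16175) had 414, 318 and 285 normalized counts with vehicle and 1347, 539, 1185 and 481 with pan. All pan samples lay above the vehicle samples, but replicates 1 and 3 were far higher than replicates 2 and 4, and the difference (log2 fold change 1.26, SE 0.42) had an adjusted p of 0.239 in limma. Il1rn, the natural antagonist of the interleukin 1 receptor, followed the same pair of samples, with 166 and 162 normalized counts in pan replicates 1 and 3, 122 and 123 in replicates 2 and 4, and 92.1 to 122 with vehicle (adjusted p = 0.577 from limma). The receptor Il1r1 had 695 ± 36.4 (SD, n = 3) and 681 ± 128 (SD, n = 4) normalized counts and Il18, which epithelium stores, had 3282 ± 188 (SD, n = 3) and 3248 ± 373 (SD, n = 4). Of the 5 well-detected members 3 were above and 2 below 0, with a median log2 fold change of 0.20 and 0 called.

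**Figure D2:**
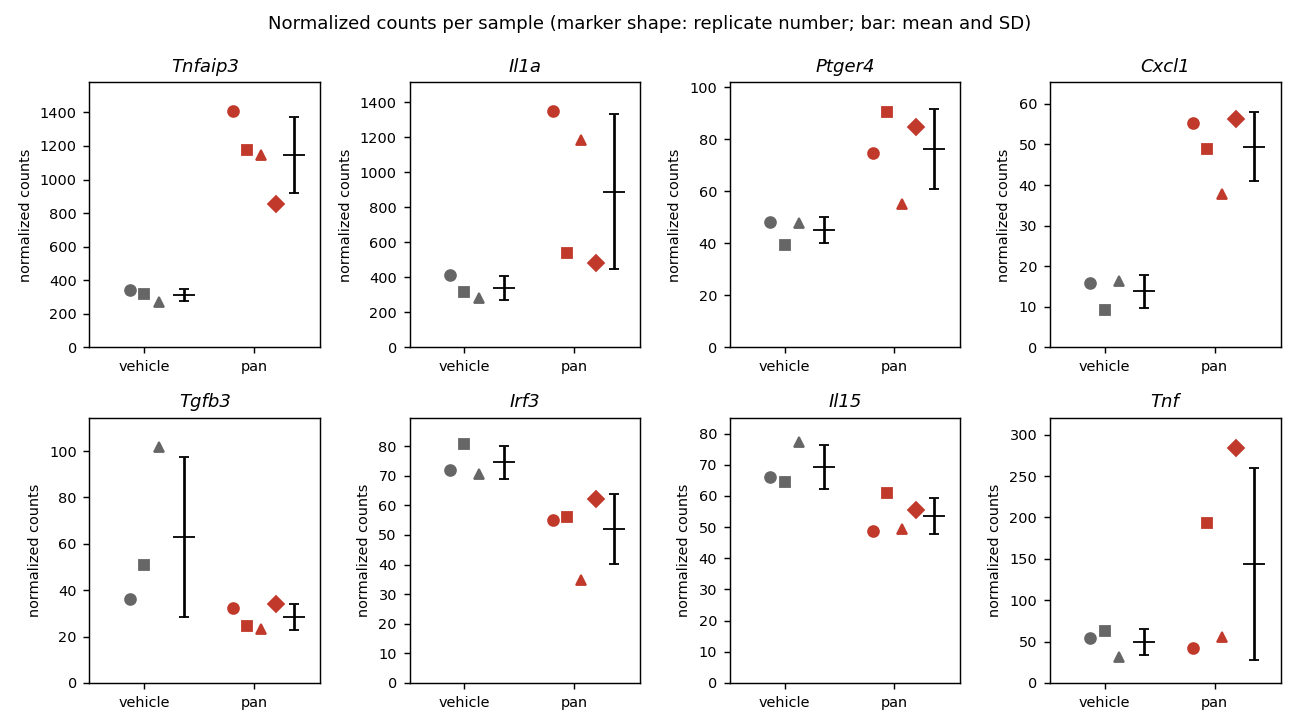
Normalized counts of 8 genes in each vehicle sample (grey) and pan sample (red), with the marker shape giving the replicate number (circle 1, square 2, triangle 3, diamond 4) and the bar giving the mean and SD. Tnfaip3, Il1a, Ptger4 and Cxcl1 are higher in all 4 pan samples, Tgfb3, Irf3 and Il15 are lower in all 4, and Tnf overlaps.

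Among prostanoid and leukotriene genes, the receptor Ptger4 was higher in every pan sample, and the enzymes named with it overlapped between the groups. Ptger4 (gene ID 19219) had 48, 39.2 and 47.7 normalized counts with vehicle and 74.7, 90.3, 55.1 and 84.6 with pan, with no overlap between the groups and pan replicate 3 nearest to the vehicle samples. The log2 fold change was 0.74 (SE 0.25, adjusted p = 0.239 from limma). The 7 well-detected members of the group had a median of 0.06, 4 above and 3 below 0. All 11 less abundant members were below 0, with a median of −0.89 against −0.60 over all 118 less abundant genes. Pla2g4a, the phospholipase that frees arachidonic acid, had 955 ± 49.0 (SD, n = 3) normalized counts with vehicle and 831 ± 171 (SD, n = 4) with pan. Alox15, a lipoxygenase, had 897 ± 65.8 (SD, n = 3) and 1102 ± 372 (SD, n = 4), its pan samples falling into 779 and 791 in replicates 1 and 3 and 1503 and 1334 in replicates 2 and 4. Ptgs2, the inducible cyclooxygenase, was at 3 counts or fewer in pan replicates 1 to 3.

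Of the growth factors, Tgfb3, a member of the transforming growth factor beta family, was lower in all pan samples. Tgfb3 (gene ID 21809) had 36, 50.7 and 102 normalized counts with vehicle and 32.5, 24.4, 23.2 and 34 with pan. The groups did not overlap, but vehicle replicate 1 lay next to the pan samples and vehicle replicate 3 far above them. The log2 fold change of −1.02 (SE 0.37, adjusted p = 0.268 from limma) was −0.60 without vehicle replicate 3 and −1.36 without vehicle replicate 1. Tgfb1 had 1027 ± 180 (SD, n = 3) and 1005 ± 164 (SD, n = 4) normalized counts, and its receptor Tgfbr1 had 4801 ± 449 (SD, n = 3) and 5026 ± 947 (SD, n = 4). The group's median over 6 well-detected genes was 0.01.

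Well-detected interferon genes were spread on both sides of 0, with 6 of 15 above and 9 below, a median of −0.08 (0.01 with each sample centred) and 0 called. Of the 6 less abundant members 5 were below 0, with a median of −1.05 against −0.60 over all 118 less abundant genes. Of these 6, 1 (Ifng) was called lower. Irf3, the factor that induces interferon beta downstream of nucleic acid sensors, had 72.1, 80.7 and 70.7 normalized counts with vehicle and 55.2, 56.1, 34.8 and 62 with pan. All pan samples lay below the vehicle samples, with replicate 3 lowest at 12 counts (log2 fold change −0.55, SE 0.26, adjusted p = 0.460 from limma). Il15, an epithelial cytokine that sustains natural killer and memory T cells, showed the same separation with 66.1, 64.5 and 77.3 against 48.7, 61, 49.3 and 55.4 normalized counts (log2 fold change −0.37, SE 0.21, adjusted p = 0.517 from limma). In pan replicates 1 to 3 Il15 rested on 15 to 25 counts, and Irf3 on 12 to 23.

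Oasl1, an antiviral gene, had 2224 ± 312 (SD, n = 3) normalized counts with vehicle and 2057 ± 359 (SD, n = 4) with pan, and Irf1 had 6584 ± 545 (SD, n = 3) and 6166 ± 747 (SD, n = 4). Among the sensors, Tlr3, which binds double-stranded RNA, had 102, 127 and 125 normalized counts with vehicle and 101, 97.6, 119 and 240 with pan. Its pan replicate 4 alone was high, and the log2 fold change of 0.14 (SE 0.35) became −0.16 without that sample. Tlr4, the receptor for bacterial lipopolysaccharide, had 795, 800 and 765 against 432, 732, 533 and 793, with 3 of 4 pan samples below the vehicle samples (adjusted p = 0.583 from limma). Nod1, an intracellular sensor, had 1010 ± 133 (SD, n = 3) and 809 ± 232 (SD, n = 4), and Tollip, which dampens Toll-like receptor signalling, had 2935 ± 95.5 (SD, n = 3) and 2950 ± 415 (SD, n = 4). In the Toll-like and NOD-like group 3 of 10 well-detected genes were above and 7 below 0, with a median of −0.14.

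All 13 listed genes of the cascade that runs from Trk receptors to Ras and ERK were well-detected, and 0 passed the test. Of these 5 had a log2 fold change above 0 and 8 below, from −0.49 to 0.32, with a median of −0.16. Of the adaptors, Shc1 had 877 ± 42.0 (SD, n = 3) normalized counts with vehicle and 773 ± 241 (SD, n = 4) with pan, and Grb2 had 738 ± 83.4 (SD, n = 3) and 654 ± 179 (SD, n = 4). Of the G proteins and kinases that follow, Hras1 had a log2 fold change of −0.32 (SE 0.24) and Map2k1, the kinase of ERK, of −0.04 (SE 0.21). Mapk3, which encodes ERK1, had 3415, 3476 and 3123 with vehicle and 1762, 2999, 1973 and 3125 with pan. Pan replicates 1 and 3 held much lower levels than all vehicle samples, and replicates 2 and 4 lay close to the lowest vehicle sample (log2 fold change −0.48, SE 0.28, adjusted p = 0.517 from limma).

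At the end of the cascade, Elk1, a factor that ERK phosphorylates, had 54.1, 48.4 and 52.6 normalized counts with vehicle and 22.7, 41.5, 37.7 and 51 with pan, with 3 of 4 pan samples below the vehicle samples (adjusted p = 0.550 from limma). Creb1, a factor activated by kinases below ERK, lay on the other side, with 3 of 4 pan samples above the vehicle samples and a log2 fold change of 0.32 (SE 0.25). Fos, an immediate target of Elk1, ranged from 1275 to 2805 with vehicle and from 1392 to 2431 with pan. Rapgef2 (0.22), Rps6ka5 (0.05) and Mknk1 (0.11), which carry the signal beside or below ERK, had log2 fold changes above 0. The 95% interval of limma lay within 1 log2 unit of 0 for 10 of the 13 genes and reached −1.12 for Mapk3, −1.19 for Elk1 and −1.02 for Fos. A transcript level does not measure the phosphorylation by which these proteins signal.

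**Figure D3:**
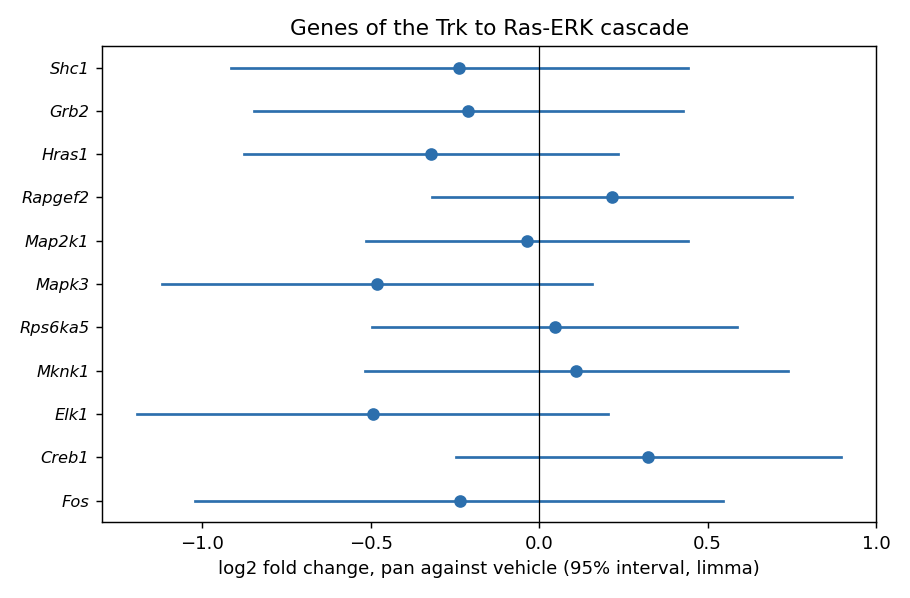
Points give the log2 fold change of pan against vehicle (x axis) for 11 of the 13 genes of the cascade from Trk adaptors (top) to transcription factors (bottom), and lines give limma's 95% intervals. Every interval shown includes 0, and the values run from −0.49 for Elk1 to 0.32 for Creb1.

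In the wider signalling groups 0 genes were called and most intervals were narrow. In MAP kinase cascades 15 of 18 well-detected genes had an interval within 1 log2 unit of 0, with a median of −0.13. Map2k6, a kinase of p38, had a value of −0.53 (SE 0.36), which was −0.256 without pan replicate 1 and −0.726 without pan replicate 2. In transcription factors 11 of 23 were above and 12 below 0, with a median of −0.10 and 18 intervals within 1. Jun, the partner of Fos, had 987, 767 and 862 normalized counts with vehicle and 1392, 988, 1368 and 981 with pan, 3 of 4 pan samples being above the vehicle samples (log2 fold change 0.43, adjusted p = 0.517 from limma). Nfe2l2, the master factor of the oxidative stress response, had 2965 ± 289 (SD, n = 3) and 4350 ± 1568 (SD, n = 4), with 6044, 4173 and 4883 in pan replicates 1 to 3 and 2302 in replicate 4, which lay below the vehicle samples. Bcl6, a repressor of cytokine genes, had 158 to 194 with vehicle and 45.4, 181, 84 and 204 with pan, again setting replicates 1 and 3 apart from 2 and 4. Stat3 had 4267 ± 434 (SD, n = 3) and 3995 ± 571 (SD, n = 4), and Hif1a had 4198 ± 363 (SD, n = 3) and 4293 ± 477 (SD, n = 4).

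Of the 14 well-detected genes of G proteins, protein kinase C and the cytoskeleton, 4 were above and 10 below 0, with a median of −0.06 (0.02 with each sample centred) and 0 called. The probe of Cdc42, a GTPase that shapes epithelial junctions and actin, alone made up 12.6 to 19.8% of the normalized total. It had 30048 ± 1747 normalized counts (SD, n = 3) with vehicle and 39634, 32885, 46898 and 25566 with pan. The related GTPase Rhoa had 12885, 12384 and 11381 with vehicle and 6991, 12016, 7520 and 10080 with pan, so that replicates 1 and 3, with the most Cdc42, had the least Rhoa (log2 fold change −0.45, SE 0.26, adjusted p = 0.517 from limma). Its downstream kinase Limk1 had a log2 fold change of −0.41 (SE 0.27), and Gnb1, a G protein beta subunit, had 14631 ± 1113 (SD, n = 3) and 16969 ± 4323 (SD, n = 4). In the group of alarmins, remodelling and stress, the small heat shock protein gene Hspb1 had 21088 ± 1110 (SD, n = 3) with vehicle and 12730, 23263, 12614 and 21522 with pan, and Hmgn1 had 6565 ± 514 (SD, n = 3) and 6720 ± 428 (SD, n = 4). The 7 well-detected genes of that group had a median of 0.03.

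Genes of macrophages, antigen presentation, complement and CC chemokines lay mostly below 0, as did the 118 less abundant genes as a whole (95 below 0, median −0.60). The less abundant genes of the prostanoid (11 of 11) and interferon (5 of 6) groups did so too. All 4 well-detected genes of macrophages and antigen presentation were below 0, with a median of −0.44 against −0.07 over all well-detected genes, and 0 were called. Of the 9 less abundant members 7 were below 0 and 1 (H2-Ea-ps) was called lower. Their median of −0.46 was less low than the −0.60 of all 118 less abundant genes. H2-Eb1, a class II molecule that presents antigen to T cells, had 174, 141 and 155 normalized counts with vehicle and 94.1, 70.8, 174 and 104 with pan. Pan replicate 3 was at the top of the vehicle range and the other 3 pan samples below all vehicle samples (log2 fold change −0.57, SE 0.32, adjusted p = 0.517 from limma). Mrc1, the mannose receptor of resident macrophages, had 40 ± 8.2 (SD, n = 3) and 29.5 ± 10.3 (SD, n = 4), Tyrobp, a myeloid signalling adaptor, had 58.0 ± 24.1 (SD, n = 3) and 45.0 ± 19.9 (SD, n = 4), and Arg1 had 3782 ± 532 (SD, n = 3) and 3620 ± 567 (SD, n = 4).

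Of the 22 complement and acute phase genes, 20 had a log2 fold change below 0 and 1 (Mbl2) was called lower, where 5 of all 248 genes (2.02%) were called. Of the 22, 16 were among the less abundant genes, with 15 below 0 and a median of −0.91 against −0.60 over the 118 of that kind. The 6 that were well-detected had 5 below 0 and a median of −0.41 against −0.07. C1qa and C1qb, subunits of C1q that macrophages make, had log2 fold changes of −0.53 (SE 0.30) and −0.51 (SE 0.38), and C1ra, a protease of the same complex, had −0.45 (SE 0.33), all with adjusted p of 0.517 to 0.594 in limma. With 1 sample left out C1qa ranged from −0.816 to −0.361, C1qb from −0.681 to −0.201 and C1ra from −0.665 to −0.248. Cd55, which protects cells from complement, was the exception, with 549 to 594 normalized counts with vehicle and 1055, 664, 1171 and 434 with pan (adjusted p = 0.640 from limma). C3 had 58.8 ± 5.54 (SD, n = 3) and 60.5 ± 23.9 (SD, n = 4), so its mean count was not lower with pan although its log2 fold change was below 0. C3ar1, the macrophage receptor for C3a, lay just under the limit of detection used here and was lower in all pan samples, with 36, 50.7 and 64.1 against 29.2, 17.1, 20.3 and 21.7 normalized counts (adjusted p = 0.0955 from limma). Of 18 genes of CC chemokines and their receptors 17 were less abundant, of which 16 had a log2 fold change below 0 and 5 lay below every vehicle sample, where 95 and 18 of the 118 less abundant genes did. Their median was −0.81 against −0.60, and 0 were called. The only well-detected one, Ccl21a, which draws dendritic cells to lymphatic vessels, had 166, 122 and 132 with vehicle and 64.9, 46.4, 113 and 168 with pan, replicate 4 being as high as the highest vehicle sample (log2 fold change −0.67, −0.99 without pan replicate 4).

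Markers of the cell types that a cornea can hold are set beside these genes. The 8 macrophage markers, several of which are members of the groups above, summed to 222 to 357 normalized counts with vehicle and 161 to 229 with pan, overlapping through vehicle replicate 1. The 6 markers of antigen-presenting cells summed to 212 to 236 and 127 to 203, without overlap. Most of the vehicle sums came from H2-Eb1, whose own values overlapped between the groups. Only 1 of the 6 was above 3 counts in every sample, and Ccr7 was at 3 counts or fewer in at least 5 samples. The 7 T cell markers summed to 54.1 to 76.1 and 29.0 to 46.4, also without overlap, but 0 of them were above 3 counts in every sample. The 6 stromal markers summed to 148 to 180 and 89.8 to 151. Fewer cells of a type and less RNA per cell cannot be told apart in such samples, and the part of these markers in the lower values was not tested.

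**Figure D4:**
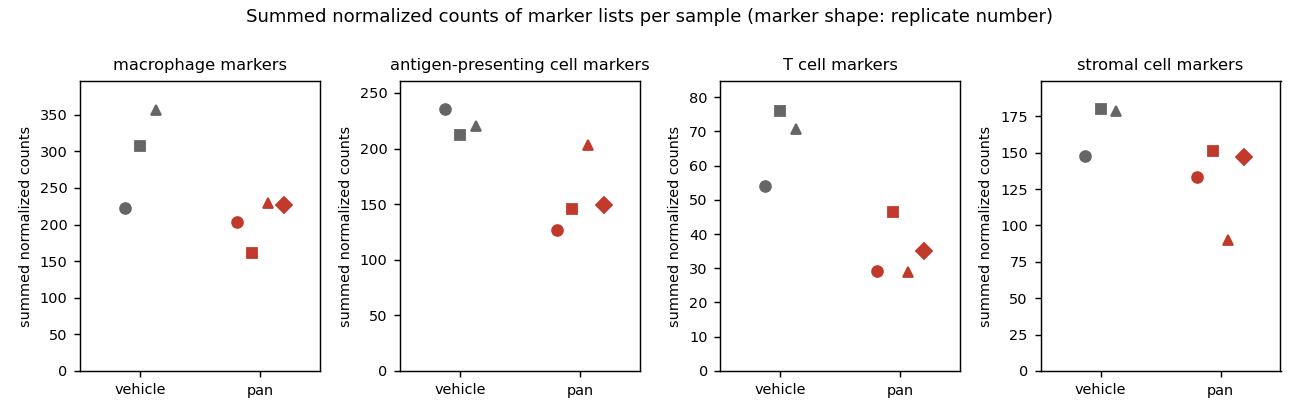
Summed normalized counts (y axis) of 4 marker lists in each vehicle sample (grey) and pan sample (red), with the marker shape giving the replicate number. The sums of antigen-presenting cell and T cell markers are lower in all 4 pan samples, and those of macrophage and stromal markers overlap.

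The 3 genes called lower were all near the limit of detection. Ifng, the cytokine of T helper 1 and natural killer cells, had 6, 8 and 10 counts in the vehicle samples, 1 count in each of pan replicates 1 to 3 and 10 counts in pan replicate 4. As 10 counts in that deeply counted sample equal 3.15 normalized counts, it lay with the other pan samples and below the 12 to 18.4 normalized counts of the vehicle samples. The log2 fold change was −2.40 (SE 0.24, adjusted p = 0.00246 from limma), and Ifng was called in all 7 fits that left out a sample. Mbl2, a lectin that starts complement activation, had 3, 5 and 6 counts against 1, 1, 1 and 10, a log2 fold change of −1.60 (SE 0.28, adjusted p = 0.0305 from limma), and was called in 1 of those 7 fits. H2-Ea-ps had 7, 8 and 6 counts against 1, 2, 1 and 18, a log2 fold change of −1.77 (SE 0.34, adjusted p = 0.0401 from limma), and was called in 0 of them. The C57BL/6 strain lacks an expressed form of H2-Ea-ps, yet its probe was read at these counts. Ifng and Mbl2 were called at similar vehicle counts, and the part of probe background in all 3 was not tested. No gene was listed below 1 count in any sample, and with 20 normalized counts added to every value the calls of these 3 genes were lost, the log2 fold changes being −0.63 for Ifng, −0.34 for Mbl2 and −0.49 for H2-Ea-ps.

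Tlr7 and Cd4, which did not pass, had similar counts. Tlr7, a sensor of single-stranded RNA, had 6, 20 and 24 counts with vehicle and 1, 3, 1 and 29 with pan (log2 fold change −2.48, adjusted p = 0.0912 from limma), and Cd4 had 8, 3 and 7 against 1, 1, 1 and 18 (−1.68, adjusted p = 0.0912). Both passed with all 3 groups in 1 fit and with the replicate number as a block, and Tlr7 also with a trended prior variance and without vehicle replicate 1. Cd40lg, a T cell ligand, was higher in all pan samples, but at 1 to 4 counts in 6 of 7 samples (log2 fold change 1.14, adjusted p = 0.239 from limma).

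The pan samples varied more among themselves than the vehicle samples did. The median SD of the log2 values was 0.34 with pan and 0.14 with vehicle over the well-detected genes, and the SD was larger with pan for 119 of 130. Replicates 1 and 3 shared high Il1a, Il1rn and Cdc42 and low Rhoa, Mapk3, Bcl6 and Hspb1, while replicates 2 and 4 shared high Alox15 and Tnf. Pan replicate 1 stood lowest in the interferon group, with a median difference of −0.56 from the vehicle mean, and replicate 2 in the macrophage group, with −1.17. Pan replicate 3 had 0.11 there. Over all well-detected genes the medians of pan replicates 1 to 4 were −0.26, 0.13, −0.01 and −0.11. Of the groups with at least 5 well-detected genes, the interleukin 1 family had medians above 0 in all 4 pan samples (0.01 to 0.57) and complement and acute phase below 0 in all 4 (−0.39 to −0.17), and the other groups held medians on both sides of 0. The 0.01 of the interleukin 1 family was in replicate 2 and lay below the overall median of that sample.

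**Figure D5:**
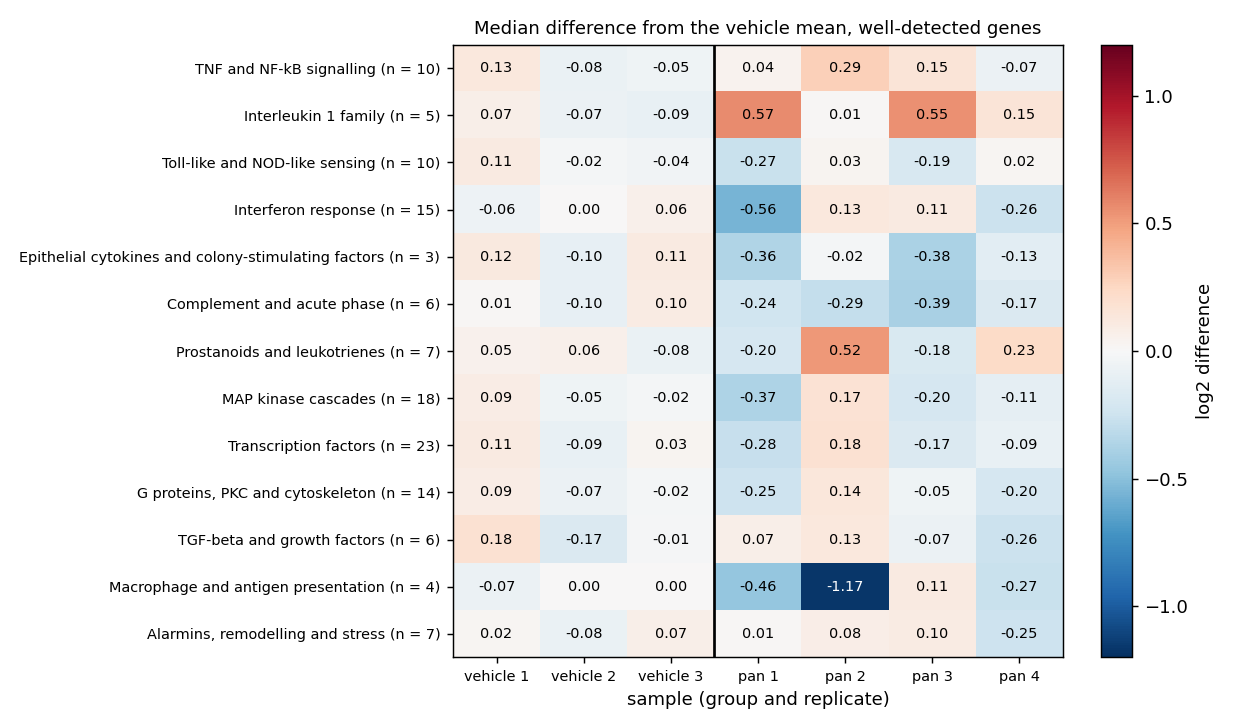
Each cell gives, for 1 functional group (rows, with the number of well-detected genes) and 1 sample (columns), the median log2 difference of the group's genes from the mean of the vehicle samples. The vehicle columns stay near 0, in part because the differences are taken from their own mean. The pan columns differ from each other. In all 4 the interleukin 1 family is above 0, and complement and the epithelial cytokines are below 0.

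Over the 130 well-detected genes the median SE was 0.26, and 88 had a 95% interval within 1 log2 unit of 0. In 117 the log2 fold change was smaller than 0.5 in size, and in 4 it reached 1 (Tnfaip3, Il1a, Tnf and Tgfb3). For the less abundant genes the median SE was 0.47. Of the other well-detected genes, those that were not called had intervals that did not exclude a difference of 1 log2 unit, and a p that missed the threshold does not show that levels were alike.

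C1, the TrkC agonist, was given at the same dose and for the same time, so the pan samples could also be set against the C1 samples. Both compounds share the vehicle samples, so they were compared directly. Of 248 genes 1 (0.403%) passed and 38 passed at an unadjusted p of 0.05. The gene that passed was Pik3c2g, a lipid kinase, with 1, 1, 1 and 14 counts in the pan samples and 7, 11, 15 and 29 in the C1 samples (log2 difference 1.54, SE 0.25, adjusted p = 0.0487 from limma), and it did not pass with a trended or robust prior variance or with median centring. Tnfaip3 had 624 ± 350 normalized counts (SD, n = 4) with C1, a log2 difference of −1.0 from pan (95% interval −1.81 to −0.19, adjusted p = 0.260 from limma). Ptger4 had 81.6 ± 11.6 (SD, n = 4) with C1 and a log2 difference of 0.11 from pan (95% interval −0.38 to 0.61). Il15 was at 92.8 ± 5.76 (SD, n = 4) with C1, a log2 difference of 0.80 (95% interval 0.41 to 1.18, adjusted p = 0.150 from limma), and it passed when the well-detected genes alone were tested. C1qa (0.77) and H2-Eb1 (0.80) were also higher with C1 than with pan, with adjusted p of 0.256 and 0.277 in limma. All C1 samples had at least 165828 counts and the label of 22 to 24 months, so compound, depth and age label cannot be told apart outside pan replicate 4.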

How the data were processed

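Total RNA of mouse corneas was counted with NanoString probes. The authors divided the counts by a factor from the geometric mean of 6 housekeeping genes in ROSALIND and deposited log2 values of 248 genes. Housekeeping probes are not analysed here. The deposited fold changes, p-values and adjusted p-values were not used. In each sample every value, taken out of the log2 scale, was within 0.01 of a whole multiple of 1 step, from which probe counts and totals (64156 to 646446) were read. Gene IDs were looked up in RefSeq: 247 matched, 238 with the same symbol, and promoter sequences are those of RefSeq (GRCm38.p6). The deposited IDs of Crp, Elk1 and Nos2 belong to other genes that share an alias, and the panel's symbols were kept.

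Pan was compared with vehicle, and C1 with pan, by limma 3.58.1 (lmFit and eBayes, R 4.3.3) on the deposited log2 values, without covariates, filter or pseudocount, with Benjamini-Hochberg adjustment over 248 genes and a threshold of 0.05. Fold changes are differences of mean log2 values. Exact two-sided permutation tests used scipy 1.17.1 in Python 3.11.15 (numpy 2.4.6, pandas 2.3.3, matplotlib 3.10.9). On simulated tables of 248 genes the comparison of pan with vehicle recovered 36.5% of genes with a simulated log2 difference of 1 and 72% of those with 2. Among well-detected genes it recovered 55% and 92.2%. Of all calls 9.21% were false, above the share that the threshold of 0.05 aims at. The simulation gave both groups of a gene 1 common spread and drew each gene on its own. The pan samples varied more than the vehicle samples, so these rates need not hold here.

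The 16 functional groups, the marker lists and the members were chosen with earlier results of these data known. Named genes were every gene past the adjusted p, the 25 well-detected genes with the smallest p, the 2 well-detected genes of highest mean in each group, 5 genes of the paper (Il1a, Ptger4, Tnfaip3, Tlr3, Oasl1), the Trk to ERK list (2 of its 13 genes are not reported singly here), members of counts of 5 or fewer, and H2-Ea-ps. Rela, C3, C3ar1, Tlr7, Cd4, Il1b, Ptgs2 and Tyrobp were named after their values were seen. Alternatives were a trended or robust prior variance, median centring, well-detected genes only, a pseudocount or floor of 20 normalized counts, all 3 groups in 1 fit, a replicate block, log2 total count as a covariate, voom weights, leaving out each sample and, chosen after seeing the data, array weights.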

Additional observations from a re-analysis of the deposited data

Results flagged for a closer look

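In 4 genes 1 pan sample lay far from the other 3 by Dixon's criterion, out of 66 groups tested, where chance gives about 3.3 (1 in 20). Arg1 had a log2 value of 11.44 in pan replicate 1 and 11.91 to 11.95 in the other pan samples. Irf1 had 12.30 in pan replicate 1 and 12.66 to 12.70 in the others. C1s had 5.24 in pan replicate 3, from 13 counts, and 6.32 to 6.40 in the others. Tgfbr1 had 11.82 in pan replicate 4, the most deeply counted sample, and 12.39 to 12.45 in the others.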

How the results depend on the processing

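Pan against vehicle gave 1 called gene with the well-detected genes alone, 2 with a pseudocount or with a floor of 20 normalized counts, 3 with log2 total counts in the model and 3 with voom weights. With 1 sample left out it gave 1 to 7, and 0 to 1 among the well-detected genes, 0 without vehicle replicate 2 or 3 (19 and 27 genes at an unadjusted p of 0.05 in limma). Tnfaip3 was called in all 11 other alternatives. All 3 groups in 1 fit gave 6, which lost Cxcl1 and gained Cd4 and Tlr7. C1 against pan gave 0 genes with a trended prior (35 at an unadjusted p of 0.05 in limma), a robust prior (34), median centring (23) and all 3 groups in 1 fit (42), and 0 to 1 with 1 sample left out. The replicate number as a block gave 5 called genes, 3 of them shared with the unblocked fit. As no vehicle sample has the number 4, the blocked fit gives the same fold changes as leaving out pan replicate 4. Same-numbered vehicle and pan samples correlated over the well-detected genes at 0.198, 0.0572 and 0.312, and the labels do not say what the numbers mark, so they were not taken to pair the samples.

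Of 43 genes 37 kept their direction in every alternative. The others lie near 0. Map2k1 was at 0.048 with median centring, Mknk1 at −0.041 with voom weights and Tlr3 at −0.16 with the replicate block. With 1 sample left out Map2k1 ranged from −0.085 to 0.034, Mknk1 from −0.051 to 0.27, Tlr3 from −0.16 to 0.28, Fos from −0.55 to 0.018, Rps6ka5 from −0.14 to 0.17 and Oasl1 from −0.20 to 0.006. Depth limits the 118 less abundant genes, many at 3 counts or fewer in pan replicates 1 to 3.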
